A study of Mus musculus with 8 samples.

Results

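The effect of losing Ezh2 in marrow cells that already carry RUNX1S291fs was read from 2 of the 8 arrays of the series, chosen by their labels and not by their values. Double_mutant is the array of CD45.2+ LSK cells with RUNX1S291fs and deleted Ezh2 (RUNX1S291fs/Ezh2Δ/Δ), and RUNX1_mutant is the array of CD45.2+ LSK cells with RUNX1S291fs and wild-type Ezh2. Both were taken at month 4 after transplantation and are labelled pre-MDS, that is, before myelodysplastic syndrome. LSK cells are the lineage-negative, Sca-1-positive, c-Kit-positive marrow fraction that holds blood stem cells and early progenitors. In all groups the donor stem cells were from the C57BL/6 background and carried an inducible Cre, Cre-ERT, with either wild-type or floxed Ezh2. They received RUNX1S291fs or an empty retrovirus and went into lethally irradiated mice beside wild-type CD45.1+ marrow. The other 4 groups of month 4 serve for comparison, each with 1 array: Ezh2_deleted (empty virus, Ezh2 deleted), WT (empty virus, Ezh2 wild type), and wild-type CD45.1+ LSK cells from the marrow of the mutant recipients, CD45.1_in_double_mutant and CD45.1_in_RUNX1_mutant. The last 2 arrays, Double_MDS and Double_MDS_ML, come from 1 moribund mouse each with RUNX1S291fs and deleted Ezh2, with MDS in both and myeloid leukemia besides in Double_MDS_ML. The month 4 arrays held cells pooled from 2 to 4 mice, so each group has 1 value and no replicate.

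Ezh2 is the main methyltransferase of Polycomb repressive complex 2, PRC2, which marks histone H3 at silenced genes, and Ezh1 is its paralogue. Runx1 is a transcription factor of blood formation, and RUNX1S291fs is a frameshift form, of the kind found in myelodysplastic syndrome, that keeps the DNA-binding domain and lacks the C-terminal part. Levels are log2 signal relative to the 75th percentile of the array, so 0 is that percentile, and differences are log2 values, Double_mutant minus RUNX1_mutant.

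On the pair of arrays the sort markers were close: Kit read 4.45 on Double_mutant and 4.75 on RUNX1_mutant, and Ly6a, which encodes Sca-1, 3.17 on Double_mutant and 3.51 on RUNX1_mutant. Ezh2 read 3.42 on Double_mutant and 3.40 on RUNX1_mutant. The labels do not place its probe inside or outside the deleted exons, so this level checks nothing about the deletion. Runx1 read 3.46 on Double_mutant and 4.41 on RUNX1_mutant, and the labels do not say whether its probe reads the viral form. Xist was well above background on both and Y-linked genes on neither. Of all probes, 52.2% were well above background on Double_mutant and 48.2% on RUNX1_mutant, within the range of 43.9% to 55.3% over the 8 arrays. Double_mutant was on slide 1 with WT and Double_MDS, and RUNX1_mutant on slide 2 with Ezh2_deleted and both CD45.1+ arrays, so slide and Ezh2 deletion cannot be told apart within the pair.

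Of 13647 genes well above background on at least 1 array of the pair, 1103 were at least 2-fold higher on Double_mutant (8.08%) and 1155 at least 2-fold lower (8.46%), with a median difference of 0.08. At least 4-fold apart were 311 higher and 239 lower genes, and at least 16-fold apart 46 and 25. For scale, CD45.1_in_double_mutant against CD45.1_in_RUNX1_mutant, both wild type and on 1 slide, gave 897 of 13243 genes at least 2-fold higher (6.77%) and 1243 lower (9.39%). In total 2258 genes were at least 2-fold apart between the mutants and 2140 between these wild-type arrays, of which CD45.1_in_RUNX1_mutant is the dimmest of the 8. Counts of list members below stand beside these shares of all genes. They are 8.08% higher and 8.46% lower for the mutant pair, and 6.77% and 9.39% for the CD45.1+ pair. Where a gene was well above background on 1 array alone, the value of the other array was set to no less than the faintest probe called well above background there, and the fold is given as "at least". Since these are bulk samples, fewer cells of a type and less RNA per cell cannot be told apart.

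The largest differences were ranked among genes well above background on both arrays, leaving out gene models with Gm or Rik symbols. In this ranking the gene with the largest difference was Prom1, which encodes the stem and progenitor surface protein prominin-1. It read 4.12 on Double_mutant and -3.02 on RUNX1_mutant, 141.4-fold higher, and between -6.44 and 1.05 on the other 6 arrays. Double_mutant was also the highest of the 8 arrays for Mogat2, an acyltransferase of triglyceride synthesis, at 4.36, against -2.47 on RUNX1_mutant. The same held for Hsd11b1, which regenerates active glucocorticoid, at 4.30, against -1.42 on RUNX1_mutant, for the metallothionein gene Mt2 at 6.31, against 1.32 on RUNX1_mutant, and for the iron exporter gene Slc40a1 at 1.35, against -3.24 on RUNX1_mutant. Afap1, an actin filament partner, was 5.74 higher, and here RUNX1_mutant stood apart as the lowest of the 8 arrays at -3.58, with Double_mutant at 2.16. Nrp2, a semaphorin and VEGF receptor gene, was 4.91 higher. The rest of the 15 largest were Wfdc21 (6.16), Lrg1 (5.40), Atp9a (5.25), Prl2c1 (5.18), G0s2 (4.89), Dmkn (4.86), S100a8 (4.76) and Cldn15 (4.57). Other probes of Atp9a gave differences down to -0.14, and Prl2c1 has close paralogues that its probe may also read.

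At the other end Hspa1a, an inducible Hsp70 gene with the near-identical copy Hspa1b, read -3.07 on Double_mutant and 3.13 on RUNX1_mutant, 73.3-fold lower. Id3, an inhibitor of E-protein transcription factors, read -2.14 on Double_mutant and 3.63 on RUNX1_mutant, which is 54.7-fold lower. In the same ranking, of genes well above background on both arrays, Atf3 (-4.90), DXBay18 (-4.50), Fosb (-4.46) and the TWEAK receptor gene Tnfrsf12a (-4.44) came next. Maff (-4.41), Plk3 (-4.28), Phlda1 (-4.15) and Hspb1 (-4.03) followed. Lmna, Dusp4, Wfdc2, Klf4 and Mir22hg lay between -3.99 and -3.88. Genes well above background on Double_mutant alone of the pair included Rhou (at least 43.1-fold higher), the glutathione peroxidase gene Gpx3 (at least 39.8-fold), Chst13, Sgms2, Pla2g7 and Olr1. On RUNX1_mutant alone were Egr4 (at least 57.1-fold lower on Double_mutant), Cadps2 (at least 42.0-fold), Ttc29, Tex28, Plekha7 and Olfr213. Of the 8 arrays, Gpx3 was well above background on Double_mutant alone and Ttc29 on RUNX1_mutant alone.

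**Figure D1:**
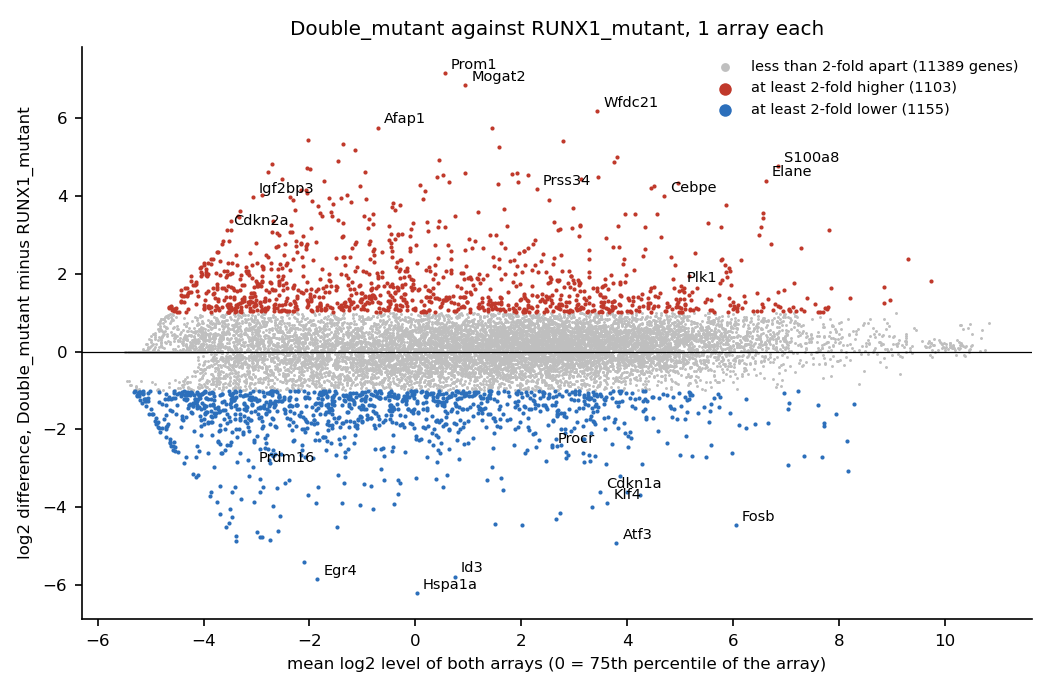
Each point is 1 of 13647 genes; the x axis is the mean log2 level of both arrays and the y axis the log2 difference, Double_mutant minus RUNX1_mutant. Of the labelled genes, Prom1, Mogat2 and Wfdc21 lie highest and Hspa1a, Egr4 and Id3 lowest. The sloped edges at the left are genes held at their bound.

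Neutrophil granule genes were higher on Double_mutant throughout. Of 18 listed genes 16 were measured, 3 of them through Double_mutant alone, so that they had to lie higher there. All 16 measured were at least 2-fold higher and 0 lower, against 8.08% of all genes, with a median difference of 3.23 (lowest 1.97, highest 4.76). The calprotectin genes S100a8 and S100a9 read 9.23 and 9.36 on Double_mutant and 4.47 and 6.25 on RUNX1_mutant. Lcn2, the iron-scavenging lipocalin of secondary granules, read 6.54 on Double_mutant and 2.34 on RUNX1_mutant. The chitinase-like gene Chil3 read 6.63 on Double_mutant and 2.40 on RUNX1_mutant, and the cathelicidin gene Camp 5.66 on Double_mutant and 3.03 on RUNX1_mutant. Cebpe, the transcription factor needed for late granules, read 6.69 on Double_mutant and 2.70 on RUNX1_mutant, and at most 3.92 elsewhere. Fcnb, Itgb2l and Mmp9 were well above background on Double_mutant but not on RUNX1_mutant. Stfa1 and Stfa2 are near-identical copies and their probes may read each other's transcripts.

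Genes of granulocyte-monocyte progenitors stood higher too, 13 of 18 by at least 2-fold, against 8.08% of all genes, and 0 lower, median 1.51. The primary granule proteases led: Elane, neutrophil elastase, read 8.81 on Double_mutant and 4.43 on RUNX1_mutant (20.9-fold higher), Ctsg, cathepsin G, read 10.49 on Double_mutant and 8.13 on RUNX1_mutant, and Prtn3, proteinase 3, was 2.99 higher. Gfi1, a repressor that directs granulocyte fate, read 5.72 on Double_mutant and 2.19 on RUNX1_mutant, and Ms4a3, a granulocyte-monocyte progenitor gene, 8.28 on Double_mutant and 4.85 on RUNX1_mutant. Mpo, myeloperoxidase, among the brightest genes of the array, was 1.82 higher. Double_mutant was the highest of the 8 arrays for Elane, Prtn3, Gfi1, Ms4a3, Ctsg and Mpo. By contrast Cebpa and Spi1, transcription factors of early myeloid cells, read 1.49 and 0.20 on Double_mutant and the same on RUNX1_mutant, and Csf3r, the G-CSF receptor gene, 7.72 on Double_mutant and 7.46 on RUNX1_mutant. Of monocyte, macrophage and dendritic genes 2 of 16 were higher and 3 lower, median -0.06, with the fractalkine receptor gene Cx3cr1 at 2.41 and Cd83, expressed by mature dendritic cells, at -3.29. With slide as a block in the limma fit described at the end, this median was 1.21 with 12 of 16 members positive. The difference was then 3.28 for Cx3cr1 and -0.04 for Cd83. Here and below, that block sets slide 1 against slide 2 through the wild-type arrays alone, as WT minus the mean of both CD45.1+ arrays. It therefore cannot tell slide apart from donor or competitor origin of the cells.

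The wild-type CD45.1+ cells from the same marrows ran the other way. CD45.1_in_double_mutant was at least 2-fold below CD45.1_in_RUNX1_mutant for 13 of 14 neutrophil genes and for 10 of 18 progenitor genes, and above it for 0 of either. Over all genes 9.39% were at least 2-fold below and 6.77% above. The mean level of the 16 neutrophil genes was 3.47 on Double_mutant, -0.01 on RUNX1_mutant, 1.56 on Ezh2_deleted, -2.08 on WT, 2.61 on Double_MDS, -3.73 on Double_MDS_ML, -2.10 on CD45.1_in_double_mutant and 0.59 on CD45.1_in_RUNX1_mutant. Set against the competitor cells of the same marrow, the median of the list was 5.79 for Double_mutant and -0.56 for RUNX1_mutant. The first sets slide 1 against slide 2 and the second lies within slide 2, so the first cannot be told apart from slide. Both used measured levels without the bound. Of the 16 genes, 11 were well above background on CD45.1_in_double_mutant, and 13 each on RUNX1_mutant and CD45.1_in_RUNX1_mutant. With slide as a block in the fit, its median was 4.75, and that of progenitor genes 2.52. The spread of this list among wild-type arrays was wide, so S100a8 with a difference of 4.76 had SE 3.76 and adjusted p = 0.997 in limma, and Elane at 4.38 SE 2.04 and adjusted p = 0.867.

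**Figure D2:**
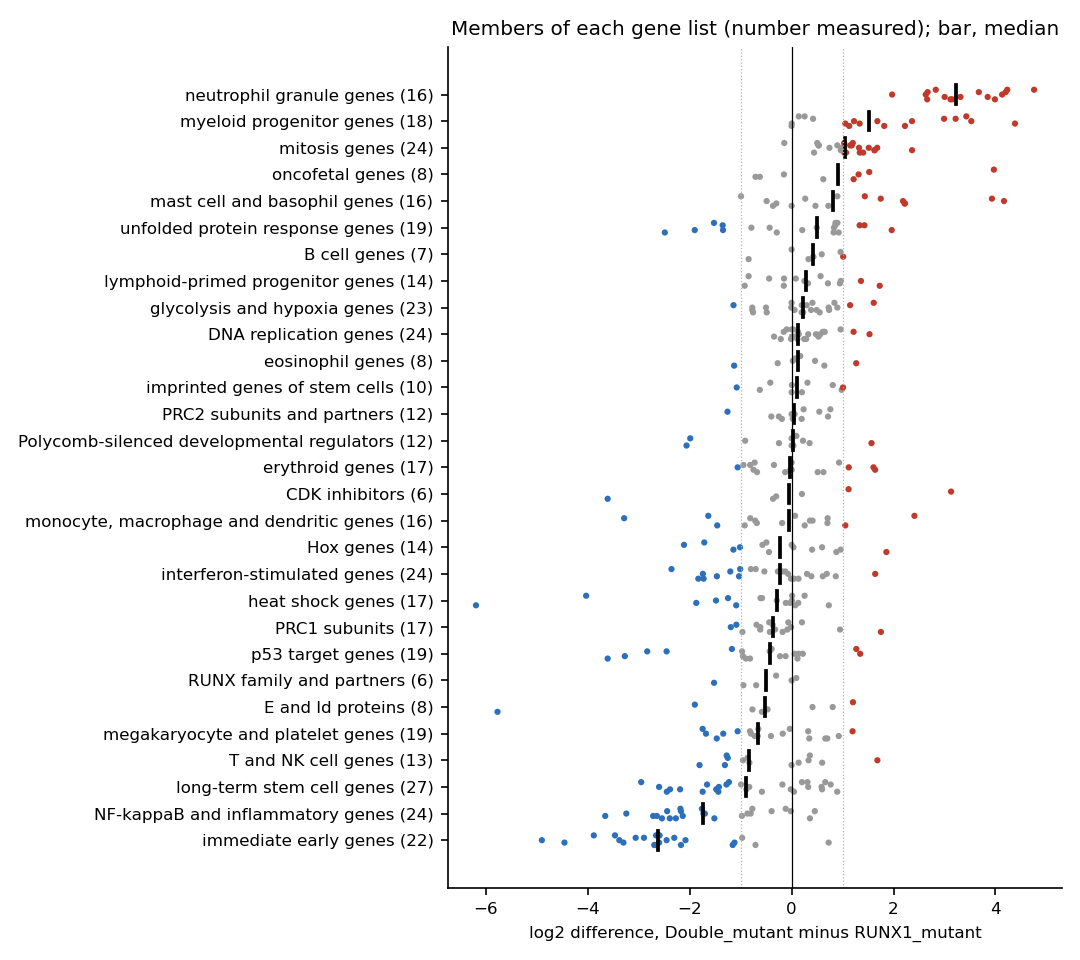
Log2 differences, Double_mutant minus RUNX1_mutant, for each measured member of the gene lists (points; red at least 2-fold higher, blue at least 2-fold lower, grey neither), with each list's median as a black bar and the number measured in brackets. Neutrophil, myeloid progenitor and mitosis genes lie to the right, and stem cell, NF-kappaB and immediate early genes to the left.

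Mast cell and basophil genes were at least 2-fold higher in 7 of 16 members, against 8.08% of all genes, and lower in 0, median 0.81. Well above background were 16 on Double_mutant and 15 on RUNX1_mutant, and a member seen on Double_mutant alone could not lie lower there. Prss34, a basophil protease gene, read 4.38 on Double_mutant and 0.21 on RUNX1_mutant, and Cyp11a1, a steroid-synthesis enzyme gene that mast cells can express, 0.56 on Double_mutant and -3.37 on RUNX1_mutant. Hdc, which makes histamine, and Tpsb2, a mast cell tryptase, were each 2.22 higher. The chymase gene Cma1 was 2.19 higher, Fcer1a, a chain of the high-affinity IgE receptor, 1.75, and Il1rl1, the interleukin-33 receptor gene, 1.44. Less than 2-fold apart were Cpa3, a mast cell carboxypeptidase gene, at 6.39 on Double_mutant and 6.75 on RUNX1_mutant, and Mcpt4 at 2.91 on Double_mutant and 2.65 on RUNX1_mutant, and Gata2 was 0.99 lower. The median of the list was 2.48 with slide as a block, and 14 of 16 members were positive. Erythroid genes had 3 of 17 higher and 1 lower, eosinophil genes 1 and 1 of 8, lymphoid-primed progenitor genes 2 and 0 of 14, B cell genes 1 and 0 of 7, and T and NK cell genes 1 and 4 of 13. Over all genes 8.08% were higher and 8.46% lower.

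Mitosis genes were higher as well, by small and similar amounts. At least 2-fold higher were 15 of 24, against 8.08% of all genes, and lower 0, with a median of 1.05, and 23 of 24 differences were positive. Plk1 and Aurkb, kinases of mitotic entry and of chromosome segregation, were 1.68 and 2.36 higher, Ccnb1, mitotic cyclin B1, and the kinesin gene Kif20a each 1.63, and Mki67, the proliferation antigen Ki-67, 1.03. The exception was Top2a, topoisomerase II alpha, at 3.19 on Double_mutant and 3.33 on RUNX1_mutant. The mean level of the list was 3.55 on Double_mutant and 2.47 on RUNX1_mutant, against 3.17 and 3.35 on CD45.1_in_double_mutant and CD45.1_in_RUNX1_mutant, 2.90 on Ezh2_deleted and 2.68 on WT. Double_mutant thus lay above, and RUNX1_mutant below, all 3 wild-type arrays. Genes of DNA replication showed little of this: 2 of 24 were at least 2-fold higher, Rrm2 (1.53) and Ccne1 (1.22), and the median was 0.13, with the Mcm2 to Mcm7 helicase genes between -0.10 and 0.28. The second probe of Ccne1 gave -0.32.

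Mitotic genes are known for promoters that hold the CHR element, bound by the DREAM and MuvB complexes, beside CCAAT boxes bound by NF-Y. Promoters of 3 list members with large differences are shown, from RefSeq on GRCm38.p6, each from 250 bases before to 50 after the gene's start, with CHR (TTTGAA) and CCAAT matches on either strand in capitals.
Plk1 promoter, chr7:122159185-122159484, plus strand: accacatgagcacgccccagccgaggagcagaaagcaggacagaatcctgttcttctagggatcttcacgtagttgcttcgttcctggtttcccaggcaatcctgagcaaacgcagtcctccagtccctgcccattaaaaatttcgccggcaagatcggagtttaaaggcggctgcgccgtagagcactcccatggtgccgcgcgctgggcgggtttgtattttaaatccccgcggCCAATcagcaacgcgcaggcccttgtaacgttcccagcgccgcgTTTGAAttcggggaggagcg
Aurka promoter, chr2:172370521-172370820, minus strand: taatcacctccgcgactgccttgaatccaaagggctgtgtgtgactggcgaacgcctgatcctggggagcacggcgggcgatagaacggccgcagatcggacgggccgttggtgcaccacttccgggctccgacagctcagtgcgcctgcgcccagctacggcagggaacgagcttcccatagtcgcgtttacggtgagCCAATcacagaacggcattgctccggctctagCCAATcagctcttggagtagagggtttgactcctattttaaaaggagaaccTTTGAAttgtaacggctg
Ccnb1 promoter, chr13:100786437-100786736, minus strand: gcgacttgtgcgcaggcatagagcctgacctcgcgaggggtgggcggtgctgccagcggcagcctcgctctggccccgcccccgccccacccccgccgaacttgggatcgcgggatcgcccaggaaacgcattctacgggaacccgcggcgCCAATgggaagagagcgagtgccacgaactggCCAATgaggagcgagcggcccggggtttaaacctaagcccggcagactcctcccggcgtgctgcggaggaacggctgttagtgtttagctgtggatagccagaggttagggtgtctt
Plk1 and Aurka hold both elements, and Ccnb1 holds 2 CCAAT matches and no TTTGAA in this window. Kif2c, whose difference ranked between those of Ccnb1 and Aurka, is not shown and holds 1 TTTGAA match and no CCAAT. Of 20 list members with a promoter in the table, 15 held TTTGAA (75%) and 17 held CCAAT (85%), against 20.2% and 41.1% of 27025 promoters. These matches describe the letters and not binding.

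Immediate early genes, which cells transcribe within minutes of a stimulus without new protein synthesis, were the most uniformly lower list. Of these, 19 of 22 were at least 2-fold lower on Double_mutant and 0 higher, against 8.46% of all genes lower, with a median of -2.63. Well above background were 22 on RUNX1_mutant and 21 on Double_mutant, and a member seen on RUNX1_mutant alone could not lie higher on Double_mutant. Among AP-1 subunits, Fosb read 3.82 on Double_mutant and 8.28 on RUNX1_mutant, and Junb -1.22 on Double_mutant and 2.25 on RUNX1_mutant. Jund was 2.69 lower and Jun 2.30 lower, whereas Fos itself read 6.41 on Double_mutant and 7.12 on RUNX1_mutant. Atf3, a stress-induced partner of Jun, read 1.34 on Double_mutant and 6.24 on RUNX1_mutant. Of the zinc finger factors, Egr1 read 4.68 on Double_mutant and 7.28 on RUNX1_mutant, and Klf4 1.68 on Double_mutant and 5.57 on RUNX1_mutant. Egr2, Klf2 and Klf6 were 3.38, 2.90 and 2.69 lower. The orphan receptor genes Nr4a1 and Nr4a2 were 3.06 and 2.59 lower. Dusp1, a phosphatase that turns off MAP kinases, and Zfp36, which destabilises mRNAs, were only 1.16 and 1.12 lower, and Myc was 0.73 higher.

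The mean level of these 22 genes was 2.76 on Double_mutant and 5.35 on RUNX1_mutant, and 3.95 on Ezh2_deleted, 3.26 on WT, 5.35 on Double_MDS, 3.55 on Double_MDS_ML, 4.70 on CD45.1_in_double_mutant and 3.88 on CD45.1_in_RUNX1_mutant. Double_mutant was the lowest of the 8 arrays, nearest to WT on its own slide, and RUNX1_mutant shared the top with Double_MDS. With slide as a block the median was -1.47 with 21 of 22 members negative, and the difference was -2.75 for Fosb, -0.83 for Egr2 and -0.11 for Dusp1. Such genes also answer cell handling and sorting, whose part in the result was not tested.

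Promoters of 2 members with a cyclic AMP response element, CRE (TGACGTCA), which CREB and ATF factors bind, are shown from the same table with the element in capitals.
Dusp1 promoter, chr17:26508423-26508722, minus strand: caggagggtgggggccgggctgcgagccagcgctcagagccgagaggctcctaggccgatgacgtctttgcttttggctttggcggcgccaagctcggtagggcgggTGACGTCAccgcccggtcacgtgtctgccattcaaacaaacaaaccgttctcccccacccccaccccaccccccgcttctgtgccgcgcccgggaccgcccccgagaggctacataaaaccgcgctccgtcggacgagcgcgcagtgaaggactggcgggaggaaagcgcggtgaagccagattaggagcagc
Btg2 promoter, chr1:134079106-134079405, minus strand: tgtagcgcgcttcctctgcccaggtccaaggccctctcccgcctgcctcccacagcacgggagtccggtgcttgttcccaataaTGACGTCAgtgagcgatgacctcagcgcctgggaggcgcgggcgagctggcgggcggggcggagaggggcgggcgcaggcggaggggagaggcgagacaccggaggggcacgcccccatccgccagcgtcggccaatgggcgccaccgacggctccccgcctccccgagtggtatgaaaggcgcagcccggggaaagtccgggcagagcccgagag
These were the 2 of 18 members with a promoter in the table that held TGACGTCA (11.1%), against 2.03% of all promoters, and Egr2 and Zfp36 were the 2 that held the CArG box of serum response factor, against 1.81%. Dusp1 and Btg2 differed by -1.16 and -2.45, both above the median of the list.

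NF-kappaB and inflammatory genes were lower in 15 of 24 members, against 8.46% of all genes, and higher in 0, median -1.75. Here 24 were well above background on RUNX1_mutant and 23 on Double_mutant, and the same limit holds for a member seen on RUNX1_mutant alone. The chemokine genes Cxcl2 and Ccl2 were 3.66 and 2.44 lower, and Tnf, the tumour necrosis factor gene, read -1.60 on Double_mutant and 1.64 on RUNX1_mutant. The feedback inhibitors Tnfaip3 and Nfkbia, which end NF-kappaB signalling, read 3.68 and 4.39 on Double_mutant, against 6.32 and 6.78 on RUNX1_mutant. Nfkb1, Cd14, Bcl3 and Il6 differed by 0.45 or less either way. The median was -1.31 with slide as a block, and the difference of Ccl2 was 1.24. In the competitor pair, immediate early genes were higher in 8 of 21 and NF-kappaB genes in 2 of 23 members, and lower in 0 and 3. Over all genes of that pair 6.77% were higher and 9.39% lower.

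Other stress genes were split. Of heat shock genes 6 of 17 were lower and 0 higher: Hspa1a (-6.20), Hspb1 (-4.03), Dnajb1 (-1.87), Dnajb4 (-1.49), Hsph1 (-1.25) and Hspb8 (-1.09), whereas the abundant Hspa8, Hsp90aa1 and Hsp90ab1 differed by 0.13 or less. The differences with slide as a block were -0.31 for Hspa1a, -0.06 for Hspb1 and 0.58 for Hsph1. The median of the list was 0.41 with 11 of 17 members positive, against -0.29 without the block. That block rests on WT against the CD45.1+ arrays, and Hspa1a read -2.91 on WT, 4.04 on CD45.1_in_double_mutant and 1.91 on CD45.1_in_RUNX1_mutant. Slide and competitor origin cannot be told apart in these shifts. Among p53 targets 5 of 19 were lower and 2 higher, the highest at 1.34. The lower ones were led by Cdkn1a, the p21 cell cycle inhibitor gene, at 1.68 on Double_mutant and 5.29 on RUNX1_mutant. Gdf15 (-3.27), Bbc3 (-2.84) and Btg2 (-2.45) followed, and Btg2 is also on the immediate early list. Bax and Ccng1 differed by 0.14 and 0.11. Unfolded protein response genes went both ways, 3 of 19 higher and 5 lower. Higher were Asns (1.96), Sdf2l1 (1.43) and the chaperone gene Calr (1.33), and lower were Chac1 (-2.49), Ddit3 (-1.90), Trib3 (-1.52), Atf4 (-1.35) and Dnajb9 (-1.35), with Atf4 at -0.13 with slide as a block. Chac1, Ddit3, Trib3 and Atf4 belong to the ATF4 arm of this response, and so does Asns. Interferon-stimulated genes had 1 higher and 8 lower of 24, from Oasl2 at 1.64 to Oas2 at -2.36. Glycolysis and hypoxia genes had 2 higher and 1 lower of 23.

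Long-term stem cell genes were lower in 12 of 27 members, against 8.46% of all genes, and higher in 0, median -0.89. Procr, the endothelial protein C receptor that marks stem cells, read 1.35 on Double_mutant and 3.80 on RUNX1_mutant. Prdm16, a regulator of stem cell maintenance, was well above background on RUNX1_mutant at -1.60 and not on Double_mutant, at least 7.74-fold lower. Tek and Tie1, receptors of the angiopoietin system, were 2.39 and 2.19 lower, Hlf 1.66, and Meis1 1.23. Egr1, the immediate early gene above, is also on this list, at -2.60. Hoxb5, Vwf and Mycn were 0.60, 0.66 and 0.90 higher. The mean level was 0.96 on Double_mutant and 1.77 on RUNX1_mutant, with 0.83 on Ezh2_deleted, 1.52 on WT, 1.83 on CD45.1_in_double_mutant and -0.01 on CD45.1_in_RUNX1_mutant, so both mutant arrays lay inside the range of the wild-type arrays. Between the competitor arrays 21 of these genes were higher and 1 lower, the opposite way to the mutant pair, against 6.77% and 9.39% of all genes. Megakaryocyte and platelet genes had 5 of 19 lower and 1 higher, median -0.65. Among them were Itga2b (-1.68), F2r (-1.47), Plek (-1.34) and Selp (-1.06), against Itgb3 at 1.20, which was -0.03 with slide as a block, while Pf4 read 4.79 on Double_mutant and 4.45 on RUNX1_mutant.

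**Figure D3:**
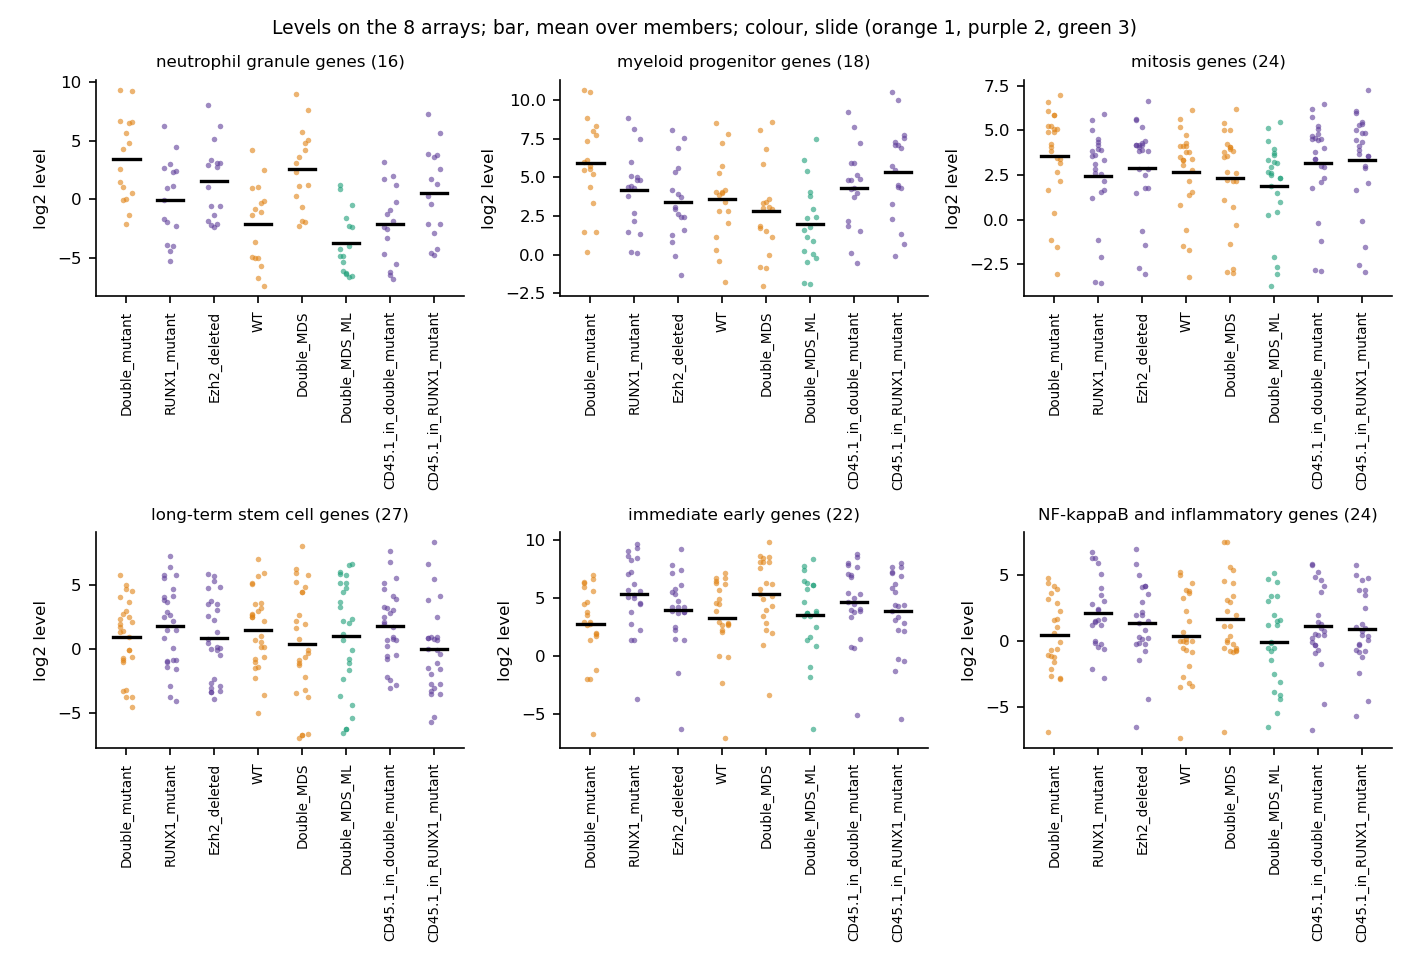
Log2 levels of the measured members of 6 gene lists (points) on the 8 arrays, with the mean over members as a black bar and the slide as colour. Double_mutant has the highest mean for neutrophil, myeloid progenitor and mitosis genes and the lowest for immediate early genes.

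Polycomb components and known Polycomb targets were mostly level. Of 12 PRC2 genes 0 were higher and 1 lower, Phf1 at -1.26, median 0.04, with Suz12 at 0.54, Eed at 0.06 and Ezh1 at -0.25. Among 17 PRC1 genes Bmi1 was 1.75 higher, 3.98 on Double_mutant and 2.23 on RUNX1_mutant, and Pcgf2 (-1.19) and Cbx2 (-1.08) were lower. Only 12 of 45 Polycomb-silenced developmental regulators and 14 of 39 Hox genes were measured, with medians of 0.02 and -0.22. Among the Hox genes, Hoxa10 (-2.11), Hoxb2 (-1.71), Hoxa7 (-1.14) and Hoxa9 (-1.01) were lower. RUNX family genes had 0 higher and 1 lower of 6, Runx2 at -1.52, and imprinted genes of stem cells 1 and 1 of 10. Among E and Id proteins Id2 was 1.20 higher and Id1 and Id3 1.90 and 5.77 lower, the other 5 less than 2-fold apart. Id1 was 1.05 higher with slide as a block.

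Cdkn2a, the Ink4a/Arf locus that encodes cell cycle inhibitors and is a classic target of Polycomb silencing, stood out among 6 CDK inhibitors. It read -0.92 on Double_mutant and was not well above background on RUNX1_mutant (-6.19), at least 8.75-fold higher. It was also well above background on Ezh2_deleted (0.77), Double_MDS (1.92), Double_MDS_ML (2.41) and CD45.1_in_double_mutant (-3.00), but neither on WT (-6.15) nor on CD45.1_in_RUNX1_mutant (-5.60). All 4 arrays of Ezh2-deleted cells thus lay above all 4 arrays of undeleted cells. Cdkn2c was 1.12 higher. Of the oncofetal genes, active before birth and mostly silent in adult marrow, 4 of 8 were higher and 0 lower. Igf2bp3, an RNA-binding protein gene, read -0.08 on Double_mutant and was at least 15.7-fold higher, being well above background on Ezh2_deleted (-2.50) and on no other array. Igf2bp2 (1.52), Lin28a (1.31) and Hmgb2 (1.22) were higher, and Hmga2 read 1.12 on Double_mutant and 1.83 on RUNX1_mutant.

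Ezh2_deleted against WT gives the same deletion without RUNX1S291fs, on arrays that the pair above does not use. There 1097 of 14081 genes were at least 2-fold higher (7.79%) and 540 lower (3.83%). Slide runs the opposite way in that pair, so genes apart the same way in both are balanced for slide, whereas opposite differences cannot be told apart from slide. That pair also differs in the sex of the cells by Xist and Y-linked genes. Of 13265 genes measured in both pairs, 135 were at least 2-fold higher in both, 13.1% of the genes higher on Double_mutant and 16.4% of those higher on Ezh2_deleted. Lower in both were 56, 5.25% and 10.9% of the lower genes. Opposite ways went 416 genes, more than the 191 the same way: 310 were lower on Double_mutant and higher on Ezh2_deleted, and 106 the reverse. Across these genes, which are not independent replicates, the 2 differences had a correlation of r = -0.14.

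Neutrophil genes made up most of the largest shared differences. S100a8 was 4.76 higher on Double_mutant than on RUNX1_mutant and 3.70 higher on Ezh2_deleted than on WT. In the same order of pairs, Retnlg gave 3.67 and 3.84, Ltf, the lactoferrin gene, 3.31 and 4.19, Lcn2 4.20 and 3.42, Chil3 4.23 and 3.32, Wfdc21 6.16 and 3.21, and Itgb2l, Chil1 and Cstdc5 belong here too. Of the list, 16 of 16 were higher in the first pair and 15 of 16 in the other, medians 3.23 and 3.54. In the other pair 16 were well above background on Ezh2_deleted and 11 on WT. A gene seen on Ezh2_deleted alone could not lie lower there. Erythroid genes stood higher as well in the pair without RUNX1S291fs, where 7 of 17 were higher and 1 lower, against 3 and 1 of 17 with it. Ezh2_deleted was above WT by 4.41 for the alpha-globin gene Hba-a1, 3.70 for Alas2, which begins heme synthesis, and 3.54 for Slc4a1, the red cell anion exchanger gene. These differed by -0.73, -0.81 and -0.13 in the pair with RUNX1S291fs, and CD45.1_in_double_mutant minus CD45.1_in_RUNX1_mutant was -3.69 for Hba-a1, which has the near-identical copy Hba-a2. The part of erythroid RNA in the neutrophil differences was not tested. For progenitor genes the median was 1.51 with RUNX1S291fs and -0.18 without, and Elane gave 4.38 and 0.11. Mreg, a melanosome and lysosome transport gene, was at least 11.0-fold and at least 9.52-fold higher and well above background on no array but these Ezh2-deleted ones of month 4. In all, 63 genes were well above background on Double_mutant and Ezh2_deleted but on neither RUNX1_mutant nor WT, 13 of them at least 2-fold above both, and the reverse held for 32 and 2 genes. Other pairings of these 4 arrays gave 299 genes and 4 for Double_mutant with WT, 231 and 44 for Ezh2_deleted with WT, 56 and 23 for both mutants with RUNX1S291fs, and 31 and 17 for RUNX1_mutant with Ezh2_deleted. The 13 included Cdkn2a, Igf2bp3, Mreg and the formyl peptide receptor genes Fpr1 and Fpr2, named here after their values were seen.

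Shared lower genes, with RUNX1S291fs and then without, were Prdm16 (at least -2.95 and -2.25), the ubiquitin ligase gene Trim47 (-2.25 and -2.04), the collagen IV genes Col4a2 (-2.38 and -1.83) and Col4a1 (-2.25 and -1.58), Rap1gap, a brake on the GTPase Rap1 (-1.73 and -2.72), Hoxb2 (-1.71 and -2.69), Gnb4, Fgf3, Nkpd1 and Csprs. Other probes of Csprs went down to -0.33. Immediate early genes were opposite, at a median of -2.63 with RUNX1S291fs and 0.91 without, as were NF-kappaB genes at -1.75 and 0.85. Stem cell genes were -0.89 and -0.64, megakaryocyte genes -0.65 and -0.98, and mitosis genes 1.05 and 0.24. B cell genes gave 0.43 over 7 measured members with RUNX1S291fs and 5.84 over 11 without. Of the 11, 11 were well above background on Ezh2_deleted and 9 on WT, and a gene seen on Ezh2_deleted alone could not lie lower there. In the competitor pair 7 of 11 B cell genes were higher and 0 lower, median 2.68.

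**Figure D4:**
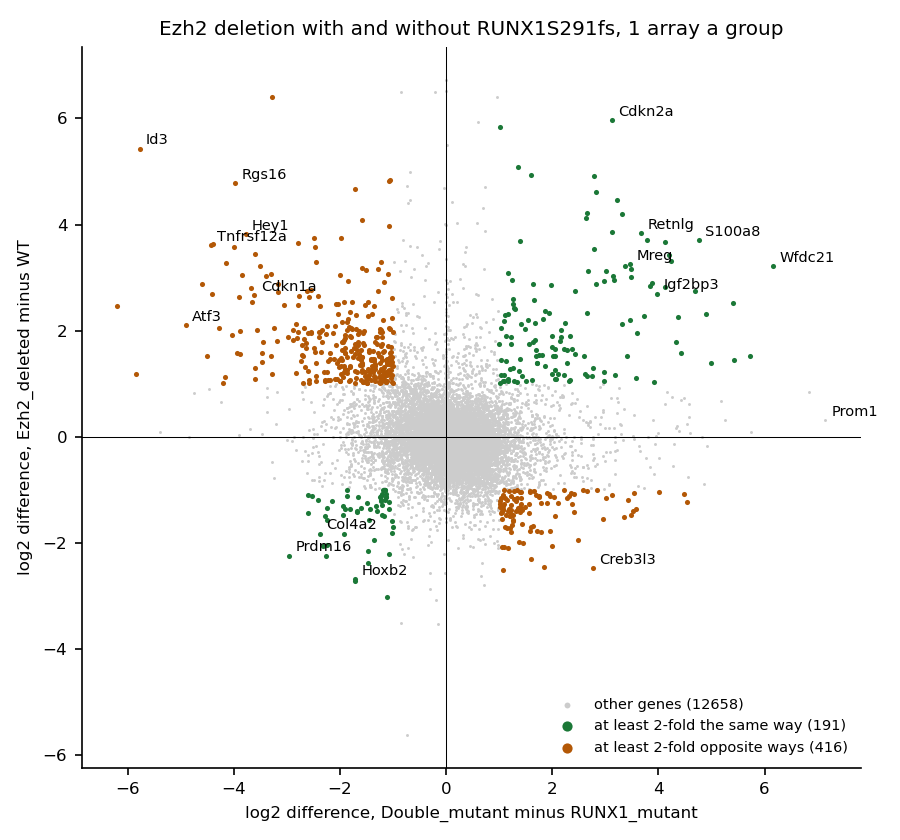
Each point is 1 of 13265 genes measured in both pairs; the x axis is Double_mutant minus RUNX1_mutant and the y axis Ezh2_deleted minus WT, in log2. The 191 genes apart the same way (green) include S100a8, Retnlg and Cdkn2a, and the 416 apart opposite ways (orange) include Id3, Hey1 and Rgs16.

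A fit over all 8 arrays gave the pair a test. Its spread came from the 3 wild-type and the 2 moribund arrays, and both lone arrays were assumed to vary as those do. It used measured levels without the bound, so each SE and p belongs to the measured difference, -6.03 for Plekha7 and -5.81 for Tex28. Plekha7, Tex28, Egfem1, Kif26a and Dab2, named below for the smallest p, were well above background on 1 array of the pair alone. Among genes well above background on both arrays, the smallest adjusted p was larger and the share of small unadjusted p lower. In limma, 0 of 13647 genes passed a Benjamini-Hochberg adjusted p of 0.05 (0%), and 861 had an unadjusted p under 0.05 (6.31%). With slide as a block, 0 passed and 808 had an unadjusted p under 0.05, and with quantile normalization 57 passed, 26 higher and 31 lower. Of the genes named here, those 57 included Igf2bp3, Mreg, Afap1, Ttc29, Plekha7, Tex28, Egfem1, Kif26a and Dab2. The smallest p belonged to Plekha7 (at least -4.76, SE 0.50) and Tex28 (at least -4.84, SE 0.51), each with adjusted p = 0.135 by limma, the range over the alternatives being 0.0254 to 0.418 for Plekha7 and 0.0321 to 0.418 for Tex28. Next were Egfem1 and Kif26a (adjusted p = 0.164), well above background on RUNX1_mutant and on no other array, and Dab2 (adjusted p = 0.181), an endocytic adaptor gene seen on Double_mutant alone. Prom1, with the largest difference, had SE 2.00 and adjusted p = 0.536, and Cdkn2a adjusted p = 0.528. No single difference described above passed this test as fitted to levels scaled by the 75th percentile. Of 153 genes chosen by the naming rule that were at least 2-fold apart by measured values, 149 kept their sign with slide as a block, 32 of them with a difference over 1.5 times smaller and 30 over 1.5 times larger, and 4 had the opposite sign.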

How the data were processed

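RNA of LSK cells was measured on 8 Agilent one-colour arrays, 1 per group. Per the labels' protocols, 20 ng of total RNA was amplified and labelled with Cy3. Per the file headers, scans were quantified in Agilent Feature Extraction 10.7.1.1, and the deposited processed signal is a fluorescence intensity, background-subtracted within the array and not scaled between arrays. The authors' deposited series table is linear signal too: for 99.8% of probes it lay within 0.01 log2 of the processed signal after 1 scaling factor for each array.

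Repeat spots were averaged, without spots the scanner software had marked as outliers, giving 55636 probes. Values are log2 signal minus the array's 75th percentile. Names for 27202 probes (20639 genes) came from the RefSeq table of GRCm38.p6 through transcript accessions, used for names only, and 28434 probes had none. A gene was read from the probe with the highest mean over the arrays. Well above background is the scanner software's call. No probe was saturated (0). Single arrays carry no count depth, and their number limits the precision. Repeat spots differed by an SD of 0.0544 to 0.0676 log2, which covers spotting only.

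The pair was described by differences and by counts at 2-fold. limma 3.58.1 in R 4.3.3 fitted cell means over the 8 arrays (3 residual and 3.25 prior degrees of freedom). The fit was tried on simulated data with the same small spread for every gene, below the residual SD of S100a8 (2.66) and Elane (1.44). That trial checked the code and not the power in these data. The alternatives were normexp with offset 50, quantile normalization, the series table, the filter on dim probes, the mean over probes and slide as a block. Normexp used the median spot signal, as the files used here hold no mean signal column. Genes named are the 15 largest differences each way among genes well above background on both arrays, and the 6 largest bounds each way. Further ones are up to 4 members a list, 10 each way shared with and 5 each way opposite to the Ezh2_deleted pair, the 5 smallest p, and members given as context. Gene models with Gm or Rik symbols were left out of the rankings by difference, by bound and over both pairs. The members and the 30 lists were chosen with earlier results of these data known. Promoters came from RefSeq.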

Additional observations from a re-analysis of the deposited data

Results flagged for a closer look

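Each result here went one way between Double_mutant and RUNX1_mutant and the opposite way between Ezh2_deleted and WT, with 1 array in each group. The test of the difference itself, an interaction contrast in limma that was added after the data were seen and sets Ezh2_deleted against the mean of the 3 wild-type arrays, passed 0 of 13647 genes, with 974 at an unadjusted p under 0.05, and with slide as a block 0 and 831. Slide runs opposite ways in the 2 pairs, so these differences cannot be told apart from slide.

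The median of immediate early genes was -2.63 with RUNX1S291fs and 0.91 without, and that of NF-kappaB and inflammatory genes -1.75 and 0.85. No test was run on these medians. Among single genes, Id3 gave -5.77 with RUNX1S291fs and 5.43 without, Tnfrsf12a -4.44 and 3.61, Foxo6 at least -4.40 and 3.63, Rgs16 at least -3.97 and 4.77, and Hey1, a Notch target gene, at least -3.78 and 3.81. Going the other way, Creb3l3 gave 2.77 and -2.49, Kcnj13 at least 2.49 and -1.96, Clca3a1 2.00 and -2.07, Il4, the interleukin-4 gene, 1.84 and at least -2.47, and Aatk 1.78 and -1.81.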

How the results depend on the processing

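No paired analysis was possible because mutant and competitor cells of 1 marrow have 1 array each, so the differences within a marrow are values with no test. The count of higher genes ran from 770 (normexp) to 1593 (no filter on dim probes), against 1103. The count of lower genes, 1155, was 610 with normexp and 2085 with no filter. Genes apart the same way in both Ezh2 pairs, 191, were 81 with normexp, 123 among genes well above background on both arrays and 378 with no filter, and those apart opposite ways, 416, were 192 with normexp and 910 with no filter. The limma count, 0, was 57 with quantile normalization and 0 under the other alternatives, 0 to 0 when each of the 6 further arrays was left out. Leaving out Ezh2_deleted could not change that fit, and leaving out either moribund array gave the same fit, with spread from the wild-type arrays only. With slide as a block, added for lists after the data were seen, medians were 2.52 for myeloid progenitor, 4.75 for neutrophil and 1.72 for mitosis genes. They were -1.47 for immediate early and -1.31 for NF-kappaB genes, and 0.20 over all genes. List medians that turned sign were monocyte 1.21 (from -0.06), heat shock 0.41 (-0.29), erythroid 0.66 (-0.03), lymphoid-primed -0.11 (0.29) and eosinophil -0.40 (0.12) genes. Those over 1.5 times larger included mast cell 2.48 (0.81), B cell 2.26 (0.43), unfolded protein 1.62 (0.49), glycolysis 0.78 (0.23), DNA replication 0.44 (0.13), oncofetal 1.49 (0.92), interferon -1.06 (-0.23) and megakaryocyte -1.31 (-0.65) genes, and T and NK cell genes were smaller at -0.34 (-0.83). Of the genes chosen by the naming rule, Clec9a (0.74), Hbb-bs (0.41), Id1 (1.05) and Mirg (1.45) reversed with slide as a block, and Notch1 (-0.55) with the mean over all probes. The cause was not tested, and the block cannot tell slide apart from donor or competitor origin of the wild-type cells. Over the alternatives, 1188 gene values stayed within the residual SD, 216 moved beyond it and 5 reversed. The dim arrays limit what can be said of genes near background, where 418 of the 2258 genes apart rest on a bound.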
